A study of Rattus norvegicus with 325 samples.

Results

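The genes described here are Pax7, the transcription factor that marks muscle satellite cells, and 7 genes of Notch signalling: the ligands Dll1 and Jag1, the receptors Notch1 and Notch3, and the effectors Hes1, Hey1 and Heyl. They were taken by symbol from gene count tables of ageing rat muscle, where they are 8 of 17315 distinct symbols, and each stood on 1 line of the tables. The rats were males of the outbred Sprague Dawley stock. RNA was sequenced from 3 hindlimb muscles (tibialis anterior, soleus and gastrocnemius) and from the diaphragm, at 7 ages of 6, 9, 12, 18 and 21 months and then 24 and 27 months. The diaphragm had 83 libraries, the gastrocnemius 73, the soleus 84 and the tibialis anterior 85. The 28 groups of 1 muscle and 1 age held 9 to 13 libraries each, and the labels give no treatment or engineered allele for any of them. The gastrocnemius had 10 libraries at 6 months and 11 at 27 months, and each of the other muscles had 12 at both ages. Libraries are separate samples by their labels. The labels do not say which libraries of different muscles came from 1 rat. All tissue of 1 age was collected on 1 day, and the effect of that day cannot be told apart from that of age.

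Satellite cells are the stem cells of skeletal muscle. They lie between the muscle fibre and its basement membrane, stay quiescent in undisturbed adult muscle, and on injury divide and give rise to myoblasts that fuse into fibres. Notch is a receptor on the cell surface that is cut when a ligand on a neighbouring cell binds it, and its inner part then enters the nucleus and joins the DNA-binding protein Rbpj to switch on genes of the Hes and Hey families, which are repressors. In satellite cells this pathway is known for keeping the cells quiescent. The same receptors and effectors also work in blood vessels, with Notch1 known from endothelial cells and Notch3 from the smooth muscle cells and pericytes around vessels, and the libraries were made from whole muscle. In such bulk samples, fewer cells of a type and less RNA per cell cannot be told apart.

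The promoter windows of Hes1, the textbook target of Notch, and of Dll1, the gene called in the most muscles below, are shown because they were the only members whose window held the letters of the Rbpj core. The windows are the 250 bases before the RefSeq gene start in rat build GRCr8, which is later than the build used for the counts, and 7 of the 8 members had one in the table. Capitals mark TGGGAA and its longer form GTGGGAA on either strand, so that TTCCCAC is GTGGGAA on the opposite strand, and each GTGGGAA also holds TGGGAA.
Hes1, chr11:84213046-84213295 (minus strand): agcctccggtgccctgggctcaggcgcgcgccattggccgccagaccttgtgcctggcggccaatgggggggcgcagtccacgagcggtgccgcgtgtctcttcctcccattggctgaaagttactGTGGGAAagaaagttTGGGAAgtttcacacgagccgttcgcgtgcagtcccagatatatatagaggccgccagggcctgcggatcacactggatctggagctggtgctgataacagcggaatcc
Dll1, chr1:64993275-64993524 (minus strand): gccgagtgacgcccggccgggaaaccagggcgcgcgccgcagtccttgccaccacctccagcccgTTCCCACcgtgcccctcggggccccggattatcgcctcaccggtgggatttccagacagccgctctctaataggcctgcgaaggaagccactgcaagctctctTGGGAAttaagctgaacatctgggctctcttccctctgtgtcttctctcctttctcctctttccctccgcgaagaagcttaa
In the Hes1 window, GTGGGAA starts 124 bases before the gene start and a further TGGGAA starts 109 bases before it. The Dll1 window holds GTGGGAA on the opposite strand from 185 bases before the start and TGGGAA on the gene's own strand from 82 bases before it. Of all 33469 promoter windows of this length, 22.1% held TGGGAA and 5.27% held GTGGGAA. The Hes and Hey proteins are known to bind the E box CACGTG and the N box CACNAG. No member window held CACGTG, against 5.59% of all windows, and 4 of 7 held CACNAG on either strand (Pax7, Notch1, Notch3 and Hes1), against 37.2%. These are matches of letters only, and the counts do not show what binds there.

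The libraries held 17555294 to 85316329 counts, with a median of 31879679. Levels are given as CPM, a gene's counts relative to its library's total after scaling by trimmed means (TMM). They are not compared between genes, whose lengths differ. Levels were scaled over all libraries and changes with age within each muscle. Changes are also of mean log2 values, so a median level and a change can differ in sign. Where 3 levels are given they are the lowest, median and highest library of the group. The muscle labels were checked with fibre genes: Ckm, muscle creatine kinase, stood at 8149.6 to 11806 CPM at 6 months in the diaphragm, 22639 to 25974 in the tibialis anterior, 3568 to 4652 in the soleus and 18922 to 36750.5 in the gastrocnemius. Acta1, skeletal actin, was above 28249 CPM in every 6-month library. The Ckm ranges of the tibialis anterior and gastrocnemius overlapped, so Ckm does not check the labels of these 2 muscles against each other. Over all libraries the raw count of a member was lowest for Hey1, with 2 to 157 counts and a median of 31.0, and Pax7 had 35 to 582. Dll1, Hes1, Heyl and Jag1 had medians of 215, 530.0, 554 and 1253 counts, and Notch1 and Notch3 medians of 2972 and 2804. On the log2 scale the median SD within a group was lowest for Notch1, at 0.12, and highest for Hey1, at 0.39.

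To see which of these genes changed with age, limma-voom was fitted in each muscle and later ages were set against 6 months. A gene was called when its Benjamini-Hochberg adjusted p over all genes of the comparison was under 0.05 and its change was over 1.5-fold. Over the 8 members, 6 later ages and 4 muscles, 7 tests were called, all at 24 or 27 months. Dll1 was higher in 4 of them, Hey1 lower in 2 and Notch3 lower in 1. At 27 months the calls were Dll1 in the gastrocnemius, soleus and tibialis anterior and Hey1 in the gastrocnemius, 4 of 32 gene and muscle combinations. No member was called in the diaphragm, where 7.52% of all genes were, 3.27% higher and 4.25% lower. There 5 of the 8 members had an unadjusted p under 0.05, and edgeR and DESeq2 also called none. In the gastrocnemius 1 member was called higher and 1 lower, against 22.8% of all genes, 15.1% higher and 7.76% lower. The soleus had 1 member called higher, against 15.0% of its genes, 9.21% higher and 5.78% lower. In the tibialis anterior 1 member was called higher, against 27.6%, 17.2% higher and 10.4% lower. As a set the members were thus called no more often than genes at large in the diaphragm, soleus and tibialis anterior, and 2 of 8 in the gastrocnemius is near its background. Scaled by total counts alone, the share of calls over all genes that were higher went from 43.4% to 51.0% in the diaphragm, 66.0% to 90.0% in the gastrocnemius, 62.4% to 89.1% in the tibialis anterior and 61.4% to 77.7% in the soleus.

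At earlier ages calls were few in these muscles. At 24 months 3 members were called in the gastrocnemius (Dll1, Notch3 and Hey1) and none elsewhere, against 14.5% of genes in the tibialis anterior, 6.51% in the soleus, 18.8% in the gastrocnemius and 2.68% in the diaphragm. Unadjusted p were under 0.05 at this age for 4, 2, 5 and 3 members in these 4 muscles. No member was called in limma-voom at 9, 12, 18 or 21 months. At 9 months 2, 1, 2 and 2 members had an unadjusted p under 0.05 in the tibialis anterior, soleus, gastrocnemius and diaphragm. The calls over all genes were 0.00851% of genes in the tibialis anterior, 0.123% in the soleus, 0.143% in the gastrocnemius and 0.108% in the diaphragm. The counts at 12 months were 2, 1, 1 and 3 in the same order, with calls for 0.196% of genes in the tibialis anterior, 0.353% in the soleus, 0.885% in the gastrocnemius and 0.532% in the diaphragm. In the diaphragm, soleus and tibialis anterior all 12-month libraries, and 1 library at 21 months in each, carried numbers of the third of 3 series of sample numbers in the labels, and the other ages those of the second, so at 12 months age and number series cannot be told apart. At 18 months they were 0, 2, 4 and 3, with calls for 5.45% of genes in the tibialis anterior, 2.84% in the soleus, 4.32% in the gastrocnemius and 2.25% in the diaphragm, and at 21 months 2, 2, 4 and 3, with calls for 6.47% of genes in the tibialis anterior, 2.61% in the soleus, 5.81% in the gastrocnemius and 1.68% in the diaphragm. edgeR and DESeq2 called 0 and 0 members at these 4 ages and 7 each over all ages. With no limit on size, an adjusted p under 0.05 at 27 months was found for 18 of the 32 combinations, 13 of them lower. By muscle these were 5 of 8 in the tibialis anterior, 3 in the soleus, 5 in the gastrocnemius and 5 in the diaphragm, against 74.2%, 53.8%, 62.1% and 45.0% of all genes. Those that were lower numbered 2, 2, 4 and 5, against 36.5%, 26.4%, 28.9% and 24.7%. As log2 values, the median change of the 8 members at 27 months was -0.012 in the tibialis anterior, -0.067 in the soleus, -0.20 in the gastrocnemius and -0.16 in the diaphragm. Over all genes tested it was 0.015, 0.019, 0.042 and 0.0026.

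**Figure D1:**
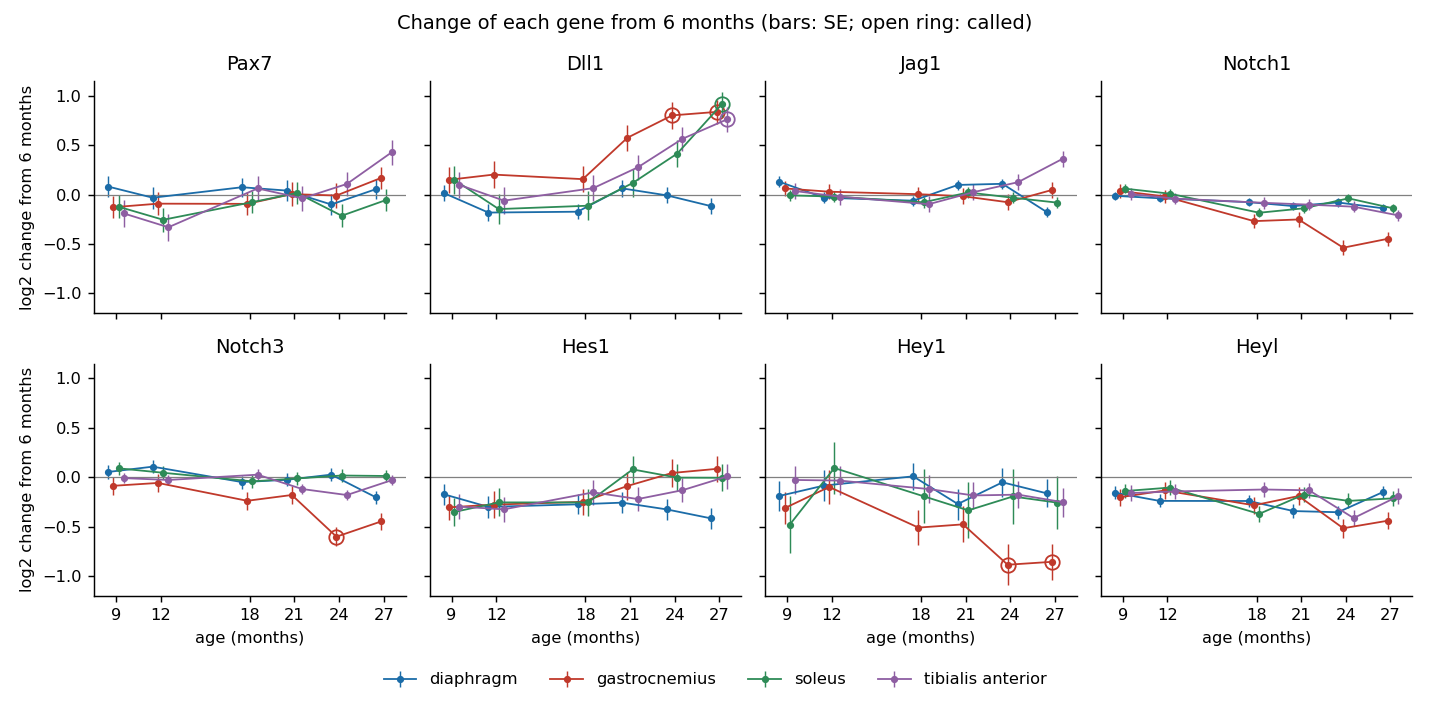
Change of each gene from 6 months by age in the 4 muscles, as the log2 change with its SE, 1 panel per gene; open rings mark calls (adjusted p under 0.05 and over 1.5-fold), and points are offset sideways for clarity. Dll1 stood at 0.84, 0.92 and 0.76 in the gastrocnemius, soleus and tibialis anterior at 27 months and at -0.12 in the diaphragm, while Notch1, Notch3 and Hey1 were lowest in the gastrocnemius.

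Pax7 is needed to form and maintain the adult satellite cell pool. At 6 months its levels were 5.44, 5.97 and 7.81 CPM in the soleus and 4.70, 5.62 and 7.24 CPM in the diaphragm. The gastrocnemius held 2.56, 3.32 and 4.09 CPM and the tibialis anterior 2.32, 2.89 and 3.87 CPM. Every soleus and diaphragm library was thus above every gastrocnemius and tibialis anterior library at this age. How many of all genes lacked such overlap was not counted. At 6 months 35.1% to 45.4% of all genes were called in the 4 pairs between these muscles. The soleus was 2.12-fold above the tibialis anterior (log2 difference 1.08 ± 0.12 SE, adjusted p = 1.1e-16) and the diaphragm 1.92-fold above it. The diaphragm and gastrocnemius, next to each other in this order, also differed (0.77 ± 0.13 SE, adjusted p = 7.9e-09). The other neighbours did not pass the test: the diaphragm minus the soleus was -0.14 ± 0.10 SE (adjusted p = 0.21) and the gastrocnemius minus the tibialis anterior 0.17 ± 0.14 SE (adjusted p = 0.33).

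With age, the median Pax7 level of the diaphragm was 5.62, 5.67, 5.71, 6.28, 5.57, 5.32 and 6.24 CPM from the first to the last of the 7 ages. In the gastrocnemius the medians over the same ages were 3.32, 3.09, 3.01, 2.93, 3.20, 3.38 and 4.03 CPM, in the soleus 5.97, 5.94, 5.00, 5.86, 6.16, 5.17 and 6.49 CPM, and in the tibialis anterior 2.89, 2.64, 2.47, 3.02, 2.76, 2.94 and 4.02 CPM. Pax7 was not called at any age in any muscle. At 27 months the libraries of the tibialis anterior held 1.65, 4.02 and 6.02 CPM, with 7 of 12 above every 6-month library and 1 below every one, a wider range at both ends. The change there was 0.43 ± 0.12 SE or 1.35-fold (adjusted p = 0.0013), which passed the p but not the 1.5-fold limit. Changes at 27 months in the diaphragm, gastrocnemius and soleus were 0.056, 0.17 and -0.053, with 95% intervals from the fit of -0.14 to 0.25, -0.056 to 0.40 and -0.27 to 0.17, all inside a 1.5-fold change either way. The 27-month change in the soleus was below that in the tibialis anterior by 0.49 (adjusted p = 0.011), under the 1.5-fold limit for a call. When libraries were scaled by their total count alone, Pax7 in the tibialis anterior was called, at 0.73, but that scaling also moved the median change of all genes there to 0.34.

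**Figure D2:**
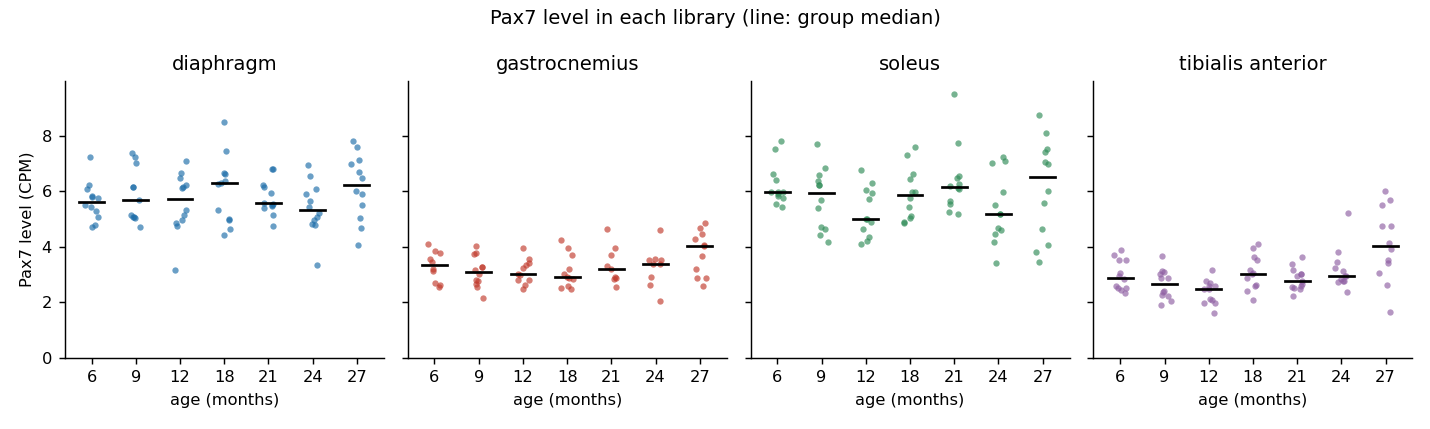
Pax7 level in CPM by age in months, 1 panel per muscle; each point is 1 library and the line the group median. The soleus and diaphragm medians lay between 5.00 and 6.49 CPM at every age and those of the gastrocnemius and tibialis anterior between 2.47 and 4.03 CPM.

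Dll1, a Notch ligand held in the cell membrane and needed for muscle progenitors to persist during development, was the member with the most calls. Its levels at 6 months were 6.13, 7.43 and 8.90 CPM in the diaphragm and 5.38, 6.55 and 8.93 CPM in the soleus. In the tibialis anterior they were 4.80, 5.44 and 7.60 CPM and in the gastrocnemius 3.52, 4.72 and 5.79 CPM. At 27 months the soleus held 7.35, 13.0 and 16.0 CPM and the gastrocnemius 6.45, 8.07 and 16.0 CPM, while the tibialis anterior held 6.29, 9.25 and 13.7 CPM and the diaphragm 5.69, 6.99 and 8.49 CPM. The groups did not overlap in the gastrocnemius, where all 11 libraries at 27 months were above all 10 at 6 months. How many of all genes lacked overlap there was not counted, and 62.1% of them had an adjusted p under 0.05. In the soleus 11 of 12 and in the tibialis anterior 9 of 12 libraries were above every 6-month library, against 0 of 12 in the diaphragm.

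Dll1 rose 1.79-fold in the gastrocnemius (log2 change 0.84 ± 0.13 SE, adjusted p = 2.8e-08) and 1.89-fold in the soleus (0.92 ± 0.13 SE, adjusted p = 2.8e-09). In the tibialis anterior it rose 1.70-fold (0.76 ± 0.12 SE, adjusted p = 9.5e-08). The diaphragm value was -0.12 ± 0.080 SE (adjusted p = 0.23), with a 95% interval of -0.28 to 0.042. Tested against each other, the change in the diaphragm was below that in the gastrocnemius by 0.89, in the soleus by 0.97 and in the tibialis anterior by 0.83 on the log2 scale (adjusted p = 3.8e-06, 3.1e-08 and 4.6e-06). No pair of limb muscles passed this test, with differences of -0.082, 0.059 and 0.14 and adjusted p of 0.74, 0.86 and 0.52. At 6 months the diaphragm had been above the gastrocnemius by 0.66 ± 0.14 SE (adjusted p = 3.6e-06).

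Over the ages, the Dll1 medians of the gastrocnemius were 4.72, 5.14, 5.42, 5.14, 7.24, 7.76 and 8.07 CPM, and the change was 0.58 at 21 months, which missed the 1.5-fold limit (adjusted p = 0.00093), and 0.80 at 24 months, which was called (adjusted p = 5.5e-07). The soleus medians were 6.55, 7.23, 6.03, 5.87, 7.46, 7.86 and 13.0 CPM, with changes of 0.42 at 24 and 0.92 at 27 months. For the tibialis anterior they were 5.44, 6.21, 5.86, 5.70, 7.12, 8.04 and 9.25 CPM, with changes of 0.57 and 0.76. The diaphragm medians stayed between 6.62 and 8.09 CPM. Age-related genes were those with a call at 1 or more ages and a trend, linear or logistic, that the Bayesian information criterion (BIC) favoured over no trend by more than 6. Dll1 was age-related in 3 muscles. It was linear in the gastrocnemius and late-logistic, with inflection at 24.75 and 24.25 months, in the soleus and tibialis anterior. With Notch3 and Hey1 in the gastrocnemius, both linear and decreasing, these were the 5 age-related combinations among 32. By muscle they were 1 of 8 members in the tibialis anterior, 1 in the soleus, 3 in the gastrocnemius and 0 in the diaphragm, against 26.7%, 12.6%, 23.4% and 6.71% of all genes.

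**Figure D3:**
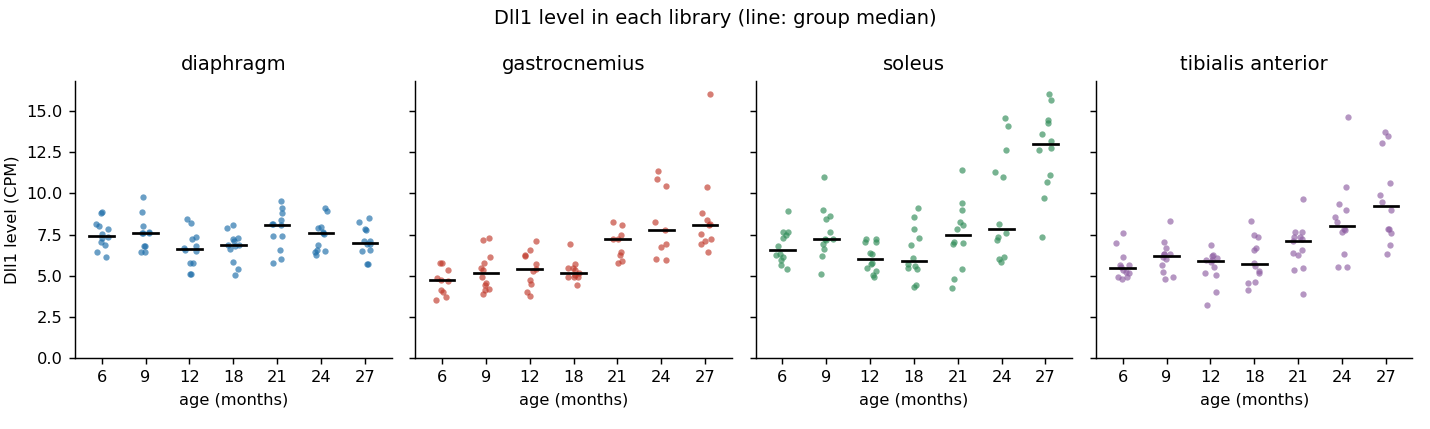
Dll1 level in CPM by age in months, 1 panel per muscle; each point is 1 library and the line the group median. Medians went from 4.72 to 8.07 CPM in the gastrocnemius, 6.55 to 13.0 in the soleus and 5.44 to 9.25 in the tibialis anterior between 6 and 27 months, and from 7.43 to 6.99 in the diaphragm.

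Lists of myogenic differentiation, denervation and dividing cells are set beside Dll1, which was called higher in the 3 hindlimb muscles and stood at -0.12 in the diaphragm. Of all genes, 17.2% were called higher at 27 months in the tibialis anterior and 9.21% in the soleus. In the gastrocnemius and diaphragm 15.1% and 3.27% were. Of the myogenic differentiation list (Myod1, Myog and other genes of muscle formation), 6 of 6 genes were called higher at 27 months in the tibialis anterior. In the soleus 5 were, in the gastrocnemius 5 and in the diaphragm 3, and none was called lower. The study read genes of its late-rising myogenesis pathway as pointing to fibres that lose their nerve. Whether myoblasts or fibres held the RNA of this list was not tested. Summed per library, this list was at 262 to 397 CPM at 6 months and 678 to 2568 CPM at 27 months in the gastrocnemius. At these ages it was at 382 to 668 and 543 to 3382 CPM in the soleus, 279 to 377 and 594 to 3075 CPM in the tibialis anterior and 188 to 349.9 and 226 to 670.2 CPM in the diaphragm. The denervation list includes acetylcholine receptor subunits, which rise when a fibre loses its nerve. All 7 of its genes were called higher in every muscle, with a median change of 1.29 in the diaphragm, 4.83 in the tibialis anterior, 2.55 in the soleus and 3.70 in the gastrocnemius. The summed denervation level was 74.6 to 116 CPM at 6 months and 143 to 607 CPM at 27 months in the diaphragm. It was 47.5 to 75.9 and 581 to 2648 CPM in the tibialis anterior, 165 to 209.9 and 318 to 1456 CPM in the soleus and 63.1 to 93.8 and 414 to 1470.3 CPM in the gastrocnemius. Genes of dividing cells (proliferation list) were called higher in 5 of 6 cases in the tibialis anterior, 2 in the soleus, 5 in the gastrocnemius and 0 in the diaphragm. Their summed level was 17.2 to 26.6 CPM at 6 months and 29.9 to 37.9 CPM at 27 months in the gastrocnemius, and 21.2 to 29.4 and 26.5 to 45.8 CPM, 21.3 to 34.6 and 26.2 to 49.0 CPM and 20.0 to 32.4 and 19.1 to 32.7 CPM in the tibialis anterior, soleus and diaphragm. Tmem8c of the first list was at 0 counts in 6 libraries, and Cdk1, Ccna2 and Chrng of the others in 4, 1 and 2.

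Markers of other cell types also moved. For comparison, 15.1%, 17.2%, 9.21% and 3.27% of all genes were called higher in the gastrocnemius, tibialis anterior, soleus and diaphragm. The shares called lower were 7.76%, 10.4%, 5.78% and 4.25%. All 8 macrophage genes were called higher in the gastrocnemius and tibialis anterior, 2 in the soleus and none in the diaphragm. Their summed level was 104 to 185 CPM at 6 months and 199.6 to 357 CPM at 27 months in the gastrocnemius, and 47.0 to 74.2 and 104 to 221 CPM, 158 to 253 and 253 to 348 CPM and 127 to 215 and 188 to 281 CPM in the tibialis anterior, soleus and diaphragm. Of 7 fibroblast genes, 1, 1, 0 and 0 were called higher and 1, 0, 1 and 3 lower in the same order. Their median change was 0.19, 0.25, 0.20 and -0.55. The summed fibroblast level had medians of 2147, 1065, 2699 and 2070 CPM at 6 months in this order. At 27 months these were 1294, 947, 2188 and 1084 CPM. In the diaphragm its ranges of 1649 to 2629 and 845.5 to 1475 CPM did not overlap, and how many of all genes lacked overlap was not counted. Of 6 Schwann cell genes 2, 2, 0 and 0 were called higher and 2, 0, 0 and 0 lower. No macrophage, fibroblast or Schwann cell marker was at 0 counts in any library. The part of these lists in the results for Dll1, Pax7 and Jag1 was not tested.

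Jag1, a ligand of the other Notch ligand family, was not called at any age. Its 6-month levels were 36.3, 41.4 and 46.5 CPM in the soleus and 33.8, 40.7 and 52.2 CPM in the diaphragm, with 30.9, 38.2 and 44.1 CPM in the tibialis anterior and 23.5, 30.2 and 42.0 CPM in the gastrocnemius. Libraries of the tibialis anterior at 27 months held 31.2, 48.6 and 86.5 CPM, and 7 of 12 were above every 6-month library. The change was 0.36 ± 0.080 SE (1.29-fold, adjusted p = 4e-05), under the 1.5-fold limit. In the diaphragm, gastrocnemius and soleus the 27-month levels were 33.4, 37.6 and 44.6 CPM, 26.5, 31.3 and 41.2 CPM and 30.8, 39.2 and 43.5 CPM, and the changes -0.18, 0.049 and -0.080. The change in the tibialis anterior was above that in the diaphragm by 0.50, the gastrocnemius by 0.33 and the soleus by 0.46 (adjusted p = 1.4e-06, 0.0066 and 1.4e-05), differences that all stayed under 1.5-fold. With total-count scaling the tibialis anterior value was called, at 0.69. In the soleus the ligands stood apart at 27 months, Dll1 at 0.92 and Jag1 at -0.080.

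Notch1, the receptor best known from endothelium and satellite cells, was lower at 27 months in every muscle, with an adjusted p under 0.05 each time and under the 1.5-fold limit each time. At 6 months it stood at 120.3, 129 and 151 CPM in the diaphragm and 89.7, 94.2 and 103 CPM in the tibialis anterior. It stood at 79.2, 90.9 and 100.4 CPM in the soleus and 70.4, 78.3 and 91.6 CPM in the gastrocnemius. In the gastrocnemius the 27-month libraries held 49.8, 58.3 and 62.8 CPM, and all 11 were below all 10 libraries at 6 months. The share of all genes without such overlap was not counted. The change there was -0.45 ± 0.070 SE (adjusted p = 9.4e-08), with -0.54 at 24 months. For the diaphragm, soleus and tibialis anterior the 27-month levels were 110.3, 123 and 135 CPM, 61.4, 82.1 and 95.8 CPM and 67.1, 80.2 and 108 CPM, and the groups overlapped. The changes were -0.14, -0.14 and -0.21 (adjusted p = 0.0052, 0.0056 and 0.00092). Tested directly, the change in the gastrocnemius was below that in the diaphragm by 0.36, the soleus by 0.30 and the tibialis anterior by 0.24 (adjusted p = 3.4e-05, 0.0009 and 0.014). All gastrocnemius libraries carried sample numbers of a series of their own, so that muscle and that number series cannot be told apart in any comparison with another muscle. The 27- and 6-month libraries of a muscle were always in 1 series. The direction of Notch1 in the soleus and tibialis anterior depended on scaling: with total-count scaling the values were 0.0092 and 0.11.

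Notch3, the receptor of mural cells, had levels at 6 months of 86.6, 101 and 109 CPM in the diaphragm and 76.9, 90.7 and 119.6 CPM in the gastrocnemius. There were 82.4, 90.2 and 108 CPM in the tibialis anterior and 74.8, 80.7 and 87.5 CPM in the soleus, and no pair of muscles was called. It fell in the gastrocnemius at 24 months, to 43.8, 58.7 and 89.9 CPM, a change of -0.60 ± 0.095 SE (adjusted p = 1.6e-07). At 27 months the gastrocnemius held 59.5, 66.3 and 89.1 CPM, 10 of 11 libraries lay below every 6-month library, and the change of -0.45 ± 0.090 SE (adjusted p = 1.6e-05) was under the 1.5-fold limit. In the diaphragm, soleus and tibialis anterior the 27-month levels were 72.2, 90.4 and 109 CPM, 56.9, 82.8 and 109.5 CPM and 70.9, 87.6 and 116 CPM, and the changes -0.20, 0.012 and -0.031. The change in the gastrocnemius was below that in the diaphragm by 0.30, the soleus by 0.45 and the tibialis anterior by 0.42 (adjusted p = 0.0096, 9.4e-05 and 0.00051). With total-count scaling the 24-month change in the gastrocnemius was -0.34 and no longer called, and the tibialis anterior at 27 months turned to 0.29.

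Among the effectors, Hey1, a repressor known as a Notch target in vessels and satellite cells, fell in the gastrocnemius. Its libraries there held 1.24, 1.75 and 2.54 CPM at 6 months and 0.613, 1.03 and 1.68 CPM at 27 months, and 8 of 11 were below every 6-month library. The change was -0.86 ± 0.19 SE or 0.552 times the 6-month level (adjusted p = 5.4e-05) at 27 months and -0.89 ± 0.21 SE (adjusted p = 0.00021) at 24 months. Earlier, it was -0.51 at 18 and -0.48 at 21 months (adjusted p = 0.039 and 0.054), neither called. In the other muscles the 27-month levels were 0.671, 1.09 and 1.61 CPM in the diaphragm, 0.0532, 0.855 and 1.31 CPM in the soleus and 0.470, 0.857 and 1.15 CPM in the tibialis anterior. The changes were -0.16, -0.26 and -0.25, with adjusted p of 0.35, 0.43 and 0.12, and the tibialis anterior was at 0.072 with total-count scaling. In the soleus 8 of 12 libraries at 27 months were above the 6-month median. Leaving out 1 soleus library gave changes of -0.35 to 0.049. The change in the gastrocnemius was below that in the diaphragm by 0.75 (adjusted p = 0.0063), while the differences from the soleus and tibialis anterior of -0.60 and -0.61 missed the test (adjusted p = 0.069 and 0.082). Counts of Hey1 were few: the soleus library with the lowest level at 27 months had 2 counts of it. At 6 months the gastrocnemius held the most Hey1, above the soleus (0.361, 0.704 and 1.98 CPM) by 1.17 ± 0.18 SE, the tibialis anterior (0.658, 0.994 and 1.42 CPM) by 0.97 ± 0.18 SE and the diaphragm (0.859, 1.23 and 1.75 CPM) by 0.62. The last of these missed the call with total-count scaling (-0.18) and with edgeR (-0.55). The 27-month fall in the gastrocnemius missed it with total-count scaling (-0.58), and Bonferroni adjustment ended the calls at both ages.

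**Figure D4:**
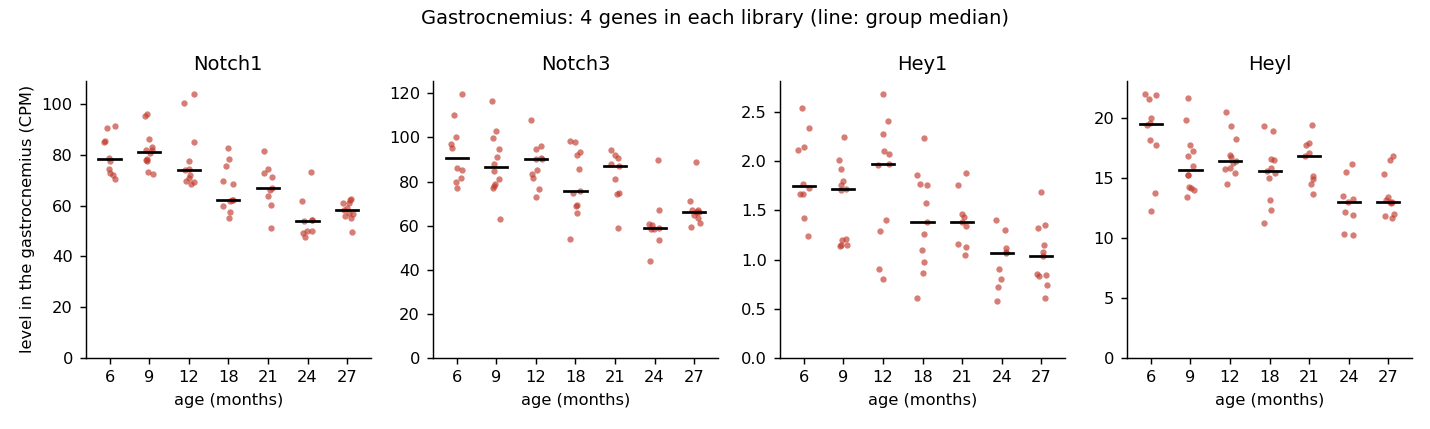
Levels of Notch1, Notch3, Hey1 and Heyl in the gastrocnemius in CPM by age in months, 1 panel per gene; each point is 1 library and the line the group median. Between 6 and 27 months the medians went from 78.3 to 58.3, 90.7 to 66.3, 1.75 to 1.03 and 19.5 to 13.0 CPM.

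Heyl, a further repressor of the Hey family, was not called at any age but had an adjusted p under 0.05 at 27 months in all 4 muscles. In 2 of them this rested on single libraries: without 1 library the adjusted p reached 0.197 in the diaphragm and 0.0597 in the tibialis anterior, and it was 0.068 in the diaphragm without the libraries of the third number series. The gastrocnemius libraries went from 12.2, 19.5 and 22.0 CPM at 6 months to 11.7, 13.0 and 16.8 CPM at 27 months, all 11 below the 6-month median, with a change of -0.44 ± 0.088 SE (adjusted p = 1.5e-05). For the diaphragm the levels were 23.5, 26.3 and 35.5 CPM and 23.1, 25.0 and 30.2 CPM, with a change of -0.15. The soleus went from 17.5, 20.4 and 23.9 CPM to 12.4, 17.8 and 22.2 CPM, a change of -0.21, and the tibialis anterior from 10.8, 15.9 and 18.1 CPM to 10.2, 13.5 and 17.9 CPM, a change of -0.19. In the diaphragm the values at 21 and 24 months were -0.34 and -0.35 (adjusted p = 0.00018 and 5.6e-05), farther from 0 than at 27 months, a difference that was not tested. With total-count scaling the value of the tibialis anterior at 27 months was 0.13. The 27-month change in the gastrocnemius was below that in the diaphragm by 0.34 (adjusted p = 0.0055).

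Hes1, the repressor most often read as a sign of active Notch signalling, was not called at any age. Its highest level at 6 months was in the soleus, 22.6, 24.5 and 37.6 CPM. It was above the tibialis anterior (10.3, 14.9 and 25.8 CPM) by 0.83 ± 0.12 SE, the diaphragm (12.9, 15.6 and 23.7 CPM) by 0.68 and the gastrocnemius (12.7, 17.1 and 24.3 CPM) by 0.65, all called. No other pair of muscles passed the test, with differences of -0.033 for the diaphragm minus the gastrocnemius, 0.15 for the diaphragm minus the tibialis anterior and 0.18 for the gastrocnemius minus the tibialis anterior (adjusted p = 0.84, 0.3 and 0.26). At 27 months the diaphragm held 9.53, 13.1 and 15.0 CPM, all 12 libraries below its 6-month median and 6 below every 6-month library. The change was -0.42 ± 0.10 SE (adjusted p = 0.00052), under the 1.5-fold limit. The gastrocnemius held 13.3, 17.7 and 29.1 CPM, the soleus 15.2, 28.5 and 34.3 CPM and the tibialis anterior 12.0, 14.5 and 19.4 CPM, with changes of 0.085, -0.0059 and 0.0072. In these 3 muscles the Hes1 medians were lower at 12 months than at 6 and at 27 months, at 13.4, 23.2 and 11.5 CPM, but the changes from 6 months of -0.28, -0.26 and -0.33 did not pass the test (adjusted p = 0.3, 0.37 and 0.32), and for the soleus and tibialis anterior age and number series cannot be told apart at 12 months. The change in the diaphragm was below that in the gastrocnemius by 0.45 (adjusted p = 0.036), and the differences from the soleus and tibialis anterior missed it (adjusted p = 0.096 and 0.082).

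Endothelial markers had a lower summed level at 27 than at 6 months in all 4 muscles. The median summed level of mural markers (pericytes and smooth muscle) was also lower in each. It went from 884 to 803 CPM in the gastrocnemius, 1048 to 961 in the tibialis anterior, 1175 to 969 in the soleus and 1041 to 956 in the diaphragm. Single mural genes were called both ways in the gastrocnemius and tibialis anterior and only lower in the soleus and diaphragm. At 27 months 7.76% of all genes were called lower and 15.1% higher in the gastrocnemius, and 4.25% and 3.27% in the diaphragm. These shares were 5.78% and 9.21% in the soleus and 10.4% and 17.2% in the tibialis anterior. Of the 12 endothelial genes (Pecam1, Cdh5 and others), 12 had a log2 change below 0 at 27 months in the gastrocnemius with 2 called. There were 12 in the diaphragm with 0 called, 12 in the soleus with 1 called and 11 in the tibialis anterior with 2 called. Their summed level was 526 to 620.0 CPM at 6 months and 290.5 to 456 CPM at 27 months in the gastrocnemius, where the ranges did not overlap. It was 686 to 805 and 432 to 656 CPM in the tibialis anterior, 568 to 662 and 410.3 to 541 CPM in the soleus and 811 to 918 and 634 to 786 CPM in the diaphragm, and in these too every 27-month library was below every 6-month library. How many of all genes lacked overlap was not counted. Pecam1 and Cdh5, which define these cells, were above 0 in every library, and Robo4 was at 0 counts in 106 libraries. From 6 to 27 months the Pecam1 medians went from 45.9 to 35.2 CPM in the gastrocnemius and 49.1 to 46.2 in the tibialis anterior. They went from 63.8 to 60.1 CPM in the soleus and 74.8 to 74.1 in the diaphragm. Those of Cdh5 went from 92.2 to 64.8, 121 to 94.2, 94.8 to 94.9 and 141 to 106 CPM in the same order. The 2 markers thus did not fall alike in all muscles. Of the 10 mural genes, 2 were called lower and 2 higher in the gastrocnemius, 1 and 0 in the diaphragm, 2 and 0 in the soleus and 2 and 2 in the tibialis anterior. Their summed level was 803 to 1026 CPM at 6 months and 760.2 to 1022 CPM at 27 months in the gastrocnemius, and 1007 to 1137 and 860.0 to 1028 CPM, 1125 to 1247 and 908 to 1061 CPM and 958 to 1183 and 863 to 1079 CPM in the tibialis anterior, soleus and diaphragm. Rgs5, a pericyte gene, was at 48.7 to 83.3 CPM at 6 and 36.7 to 54.3 CPM at 27 months in the gastrocnemius, and Pdgfrb at 68.0 to 96.8 and 54.9 to 75.8 CPM. The mural genes called lower there were Rgs5 (-0.60) and Kcnj8 (-1.11), and those called higher were the smooth muscle genes Cnn1 (1.15 ± 0.28 SE) and Myh11 (0.62 ± 0.16 SE). In the tibialis anterior Rgs5 (-0.71) and Kcnj8 (-0.78) were called lower and Cnn1 (1.09) and Acta2 (0.64) higher. The median change of the mural list was -0.041 in the gastrocnemius and 0.0012 in the tibialis anterior, that of the endothelial list -0.42 and -0.36. The part of vessel cells in the values of Notch1, Notch3, Hey1 and Heyl was not tested.

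Fibre genes also moved with age. At 27 months 7.76% of all genes were called lower in the gastrocnemius and 10.4% in the tibialis anterior. Called higher were 9.21% in the soleus and 3.27% in the diaphragm. Of the 10 on the fibre list, 2 were called lower in the gastrocnemius (Ckm and Myh4) and 3 in the tibialis anterior (Ckm, Myh4 and Myh7), with none higher in either. In the soleus 3 were called higher (Myh1, Myh4 and Tnnt3) and in the diaphragm 1 (Myh4), with none lower. Their summed level was 207544 to 271614 CPM at 6 months and 115889 to 206666 CPM at 27 months in the gastrocnemius, where every 27-month library was below every 6-month library. It was 224267 to 250631 and 104593 to 218975 CPM in the tibialis anterior, again without overlap, 96245 to 113713 and 50154 to 112617 CPM in the soleus and 99485 to 129527 and 99454 to 141970.0 CPM in the diaphragm. The share of all genes that lacked overlap was not counted. The part of the fibre genes in the member values was not tested.

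Differences between muscles were tested for the 8 members over 6 pairs, 48 tests at 6 months and 48 of the 27-month change, in 1 fit over all libraries. At 6 months 13 of the 48 were called. Between the diaphragm and gastrocnemius 4 of 8 members were called (Pax7, Dll1 and Notch1 higher in the diaphragm, Hey1 lower), against 37.3% of 12784 genes. Hes1 alone was called between the diaphragm and soleus (23.9% of genes), and Pax7 and Heyl between the diaphragm and tibialis anterior (35.1%). The gastrocnemius and soleus differed in Pax7, Hes1 and Hey1 (45.4%), the gastrocnemius and tibialis anterior in Hey1 (17.3%), and the soleus and tibialis anterior in Pax7 and Hes1 (42.9%). The share of members called was thus above that of all genes only for the diaphragm against the gastrocnemius, where the Hey1 call was lost with edgeR (-0.55) and Bonferroni adjustment. With 8 members 1 call weighs heavily in these shares, and they are not read as a result about the members. Heyl was 0.85 ± 0.076 SE above the tibialis anterior in the diaphragm (adjusted p = 3.1e-23) and Notch1 0.71 ± 0.057 SE above the gastrocnemius (adjusted p = 3.5e-28).

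**Figure D5:**
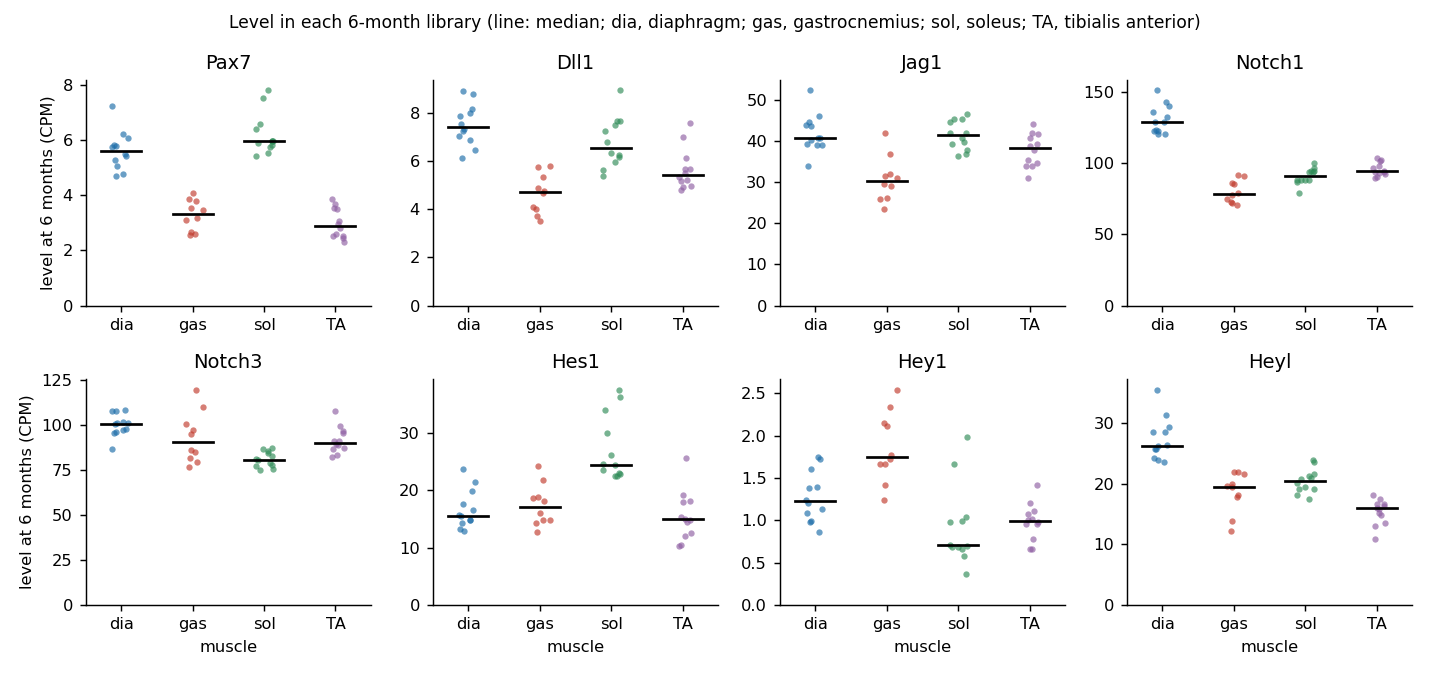
Level of each gene at 6 months in CPM, 1 panel per gene with its own scale; each point is 1 library of the muscle named under it and the line the median. Pax7 split the soleus and diaphragm (medians 5.97 and 5.62) from the gastrocnemius and tibialis anterior (3.32 and 2.89), Hes1 was highest in the soleus (24.5) and Hey1 in the gastrocnemius (1.75).

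Of the 48 tests of the 27-month change, 4 were called. They were Dll1 and Hey1 for the diaphragm against the gastrocnemius (21.6% of all genes called), and Dll1 alone for the diaphragm against the soleus (11.9%) and against the tibialis anterior (20.3%). The Hey1 call was lost with total-count scaling (0.47, adjusted p = 0.096) and with Bonferroni adjustment (adjusted p = 1). No member was called between limb muscles, where 14.5% of genes were for the gastrocnemius and soleus, 7.32% for the gastrocnemius and tibialis anterior and 15.8% for the soleus and tibialis anterior. Without adjustment, 3, 5 and 2 members had p under 0.05 in these 3 pairs, and edgeR made 5 calls over all pairs.

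The other genes of the pathway were described from a list of 46, of which 41 were in the tables and 36 passed the filter on low counts. At 27 months 3 of the 36 were called higher and 4 lower in the gastrocnemius, 6 and 2 in the tibialis anterior and 2 and 1 in the soleus. Of all genes 22.8%, 27.6% and 15.0% were called in these muscles, so the list was called no more often than genes at large. None was in the diaphragm, where edgeR called 0, DESeq2 0, and 21 had an unadjusted p under 0.05. The median change of the list was -0.015, 0.064, 0.099 and -0.0074 in these 4 muscles, in this order. Nrarp, a Notch target that feeds back on the pathway, fell in the gastrocnemius (-0.85 ± 0.12 SE, adjusted p = 1.2e-08), the soleus (-0.72) and the tibialis anterior (-0.70), and stood at -0.53 in the diaphragm, under the 1.5-fold limit. Its libraries held 14.9, 16.5 and 23.4 CPM at 6 months and 6.48, 10.6 and 12.7 CPM at 27 months in the gastrocnemius. Dll4, the ligand of endothelial cells, fell in the gastrocnemius (-1.0 ± 0.11 SE) and tibialis anterior (-0.64 ± 0.094 SE), from 16.7, 27.4 and 33.2 to 9.33, 14.4 and 17.4 CPM in the former, so this ligand and Dll1 went opposite ways in both muscles. In the soleus Dll4 stood at -0.58 (adjusted p = 3e-08), just under the 1.5-fold limit, and was called there by edgeR (-0.60), by DESeq2 (-0.60) and without the filter (-0.59). In the diaphragm it stood at -0.28. Total-count scaling ended the calls of Nrarp (-0.57, -0.57 and -0.37 in the gastrocnemius, soleus and tibialis anterior) and that of Dll4 in the tibialis anterior (-0.31). Dlk1, a membrane protein related to the Delta ligands that lacks their receptor-activating domain, rose in the tibialis anterior (1.64 ± 0.25 SE) and gastrocnemius (0.85 ± 0.20 SE). Its gastrocnemius call was lost with Bonferroni adjustment (adjusted p = 0.72). Neurl1, a ubiquitin ligase that acts on ligands, rose in the soleus (1.24 ± 0.14 SE) and fell in the gastrocnemius (-0.61 ± 0.096 SE). With 1 library left out, Neurl1 stood at 0.44 to 0.57 in the diaphragm and -0.47 to -0.38 in the tibialis anterior. These values stayed under the 1.5-fold limit, with adjusted p of at most 0.00023 and 0.00016. The gastrocnemius call was lost with total-count scaling (-0.33), with sample quality weights (-0.57), and without library 0 at 27 months (-0.58) or library 4 at 6 months (-0.58). Of the other receptors, Notch2 stood at 0.79 in the tibialis anterior, where it was called higher, and at 0.47, 0.55 and 0.074 in the gastrocnemius, soleus and diaphragm. Notch4 was called lower in the gastrocnemius (-0.61) and stood at -0.20, -0.40 and -0.42 in the diaphragm, soleus and tibialis anterior. Hes5 was at 0 counts in 313 libraries and Dll3 in 301. Jag2, Maml2, Dtx1, Spen and Fbxw7 were not analysed here.

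The 22 other satellite cell genes of the list were all in the tables, and Pax3 passed the filter in the diaphragm and gastrocnemius only. At 27 months 7 were called higher and 2 lower in the tibialis anterior, 6 and 2 in the gastrocnemius, 5 and 0 in the soleus, and 1 and 1 in the diaphragm, with median changes of 0.32, 0.090, 0.20 and -0.11. In this order 21, 22, 21 and 22 of them were tested. Of all genes, 27.6%, 22.8%, 15.0% and 7.52% were called in these muscles. Myf5, a myogenic factor of satellite cells and myoblasts, rose in the tibialis anterior (2.41 ± 0.24 SE), gastrocnemius (2.35 ± 0.19 SE) and soleus (0.74 ± 0.14 SE) and stood at 0.075 in the diaphragm. Its libraries went from 1.67, 2.72 and 3.75 to 4.51, 18.2 and 30.2 CPM in the tibialis anterior, from 1.59, 2.30 and 3.60 to 6.11, 11.2 and 15.9 CPM in the gastrocnemius and from 11.6, 12.9 and 16.4 to 8.80, 23.2 and 33.9 CPM in the soleus. Pax7, by comparison, stood at 0.43 in the tibialis anterior (adjusted p = 0.0013, under the 1.5-fold limit), 0.17 in the gastrocnemius and -0.053 in the soleus. Msc, a repressor of myogenic factors, rose in the same 3 muscles (1.95, 1.62 and 2.73 in the gastrocnemius, soleus and tibialis anterior), although it was at 0 counts in 36 libraries and its call in the soleus was lost in edgeR (1.47), in DESeq2 (1.49) and without any of 5 single libraries (1.40 to 1.45). Col5a3, a collagen V chain, fell in the diaphragm (-1.39 ± 0.12 SE), gastrocnemius (-0.96 ± 0.12 SE) and tibialis anterior (-0.94 ± 0.10 SE), with diaphragm libraries of 25.7, 28.8 and 36.6 CPM at 6 and 5.14, 13.4 and 16.5 CPM at 27 months. In the soleus Col5a3 was not called but lay around the 1.5-fold limit. With 1 library left out it stood there at -0.65 to -0.50 (adjusted p at most 0.0012). Chrdl2 rose in the soleus (0.96 ± 0.12 SE) and diaphragm (0.59 ± 0.093 SE), the only gene of the list called higher in the diaphragm, at a value so near the limit that leaving out any of 10 single libraries ended the call (0.56 to 0.58). With 1 library left out, Chrdl2 stood at 0.35 to 0.42 in the tibialis anterior (adjusted p at most 0.00069), under the limit, and at 0.067 to 0.17 in the gastrocnemius. Pax3, the relative of Pax7, was listed at 6 months with 4.22 to 7.72 CPM in the diaphragm, 0.0605 to 0.746 CPM in the gastrocnemius and 8 and 7 of 12 libraries at 0 counts in the soleus and tibialis anterior.

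Likeness of pattern was measured over the 28 group means of log2 CPM with the mean of each muscle subtracted, among the 11517 genes tested in every muscle. Each point is the mean of the same libraries for both genes, so scaling and makeup of those libraries are shared, and the values are a description. Dll1 was most like Tph1 (r = 0.95, rho = 0.87), Minpp1 (r = 0.94, rho = 0.86) and Gabbr1 (r = 0.94, rho = 0.88). Notch1 was most like Nos3 (r = 0.98, rho = 0.96), Shank3 (r = 0.97, rho = 0.94) and Esam (r = 0.96, rho = 0.93), of which Nos3 is the nitric oxide synthase of endothelium and Esam an adhesion molecule of endothelial cells. Notch3 was most like Ttyh3 (r = 0.88, rho = 0.78), Shank3 (r = 0.88, rho = 0.78) and Esam (r = 0.88, rho = 0.82), and Hey1 like Timp4 (r = 0.86, rho = 0.80), Aqp1 (r = 0.85, rho = 0.79) and Pecam1 (r = 0.85, rho = 0.73). Heyl was nearest to Elk1 (r = 0.85, rho = 0.85), Ppard (r = 0.84, rho = 0.83) and Agap2 (r = 0.83, rho = 0.78) and Pax7 to Sin3b (r = 0.88, rho = 0.81), Ccdc8 (r = 0.84, rho = 0.71) and Fam195b (r = 0.84, rho = 0.74). For Jag1 the genes were Itm2b (r = 0.83, rho = 0.73), Stard13 (r = 0.80, rho = 0.65) and Smco4 (r = 0.73, rho = 0.66), and for Hes1 March3 (r = 0.79, rho = 0.82), Hacd1 (r = 0.78, rho = 0.79) and MGC94199 (r = 0.76, rho = 0.77). Among the members themselves, the highest values were for Notch1 with Notch3 (r = 0.85), Hey1 (r = 0.78) and Heyl (r = 0.73). Hes1 stood at r = -0.22 with Hey1 and -0.03 with Heyl, and Dll1 was negative with Notch1 (r = -0.62) and Hey1 (r = -0.63).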

How the data were processed

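RNA from muscle of male Sprague Dawley rats was strand-specific, depleted of ribosomal RNA and sequenced in read pairs. The authors deposited raw counts per gene for each library, made with the ArrayStudio pipeline (version not given in the sources used here) on rat reference B6.0 with an in-house RefSeq gene model. The protocol text in the labels describes mice, and the rat steps are those of the study's methods. Lines of 1 symbol were summed (494 symbols, no member among them). No 2 libraries were identical.

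Genes were kept with filterByExpr (minimum count 10, minimum total 15), and counts were scaled by TMM in edgeR 4.0.16. Each muscle was fitted over all ages with limma 3.58.1 (voom) under R 4.3.3, two-sided, later ages against 6 months. Muscle pairs were contrasts in 1 voom fit over all libraries. Trends compared null, linear and logistic models of log2 CPM, logistic when its BIC was over 2 below the linear; inflections before 12 months were early and after 21 months late. Depth limits precision through the counts given beside each gene. Both fits and the trend step were tested on simulated data. The members and lists were chosen with earlier results of these data known. Named were all members, list genes called in 1 direction in 3 or more muscles or with the largest called rise or fall of a muscle, the first 2 markers of other lists where used, and the 3 genes most like each member; Notch2, Notch4, Hes5, Dll3, Robo4, Pax3, Kcnj8, Cnn1, Myh11, Acta2, Myh1, Myh4, Myh7 and Tnnt3 were named after their values were seen. Alternatives were Bonferroni adjustment, a 2-fold limit, RLE and total-count scaling, no filter, edgeR quasi-likelihood, DESeq2 1.42.0, quality weights, a replicate block, 27 and 6 months only, leaving out the third number series and leaving out each 6- and 27-month library. Promoters are RefSeq windows of GRCr8; Hey1 had none in the table. p-values measure the spread between these samples.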

Additional observations from a re-analysis of the deposited data

Results flagged for a closer look

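These results were picked out because a test of the difference itself showed unlike changes from 6 to 27 months in 2 muscles (interaction contrast in limma-voom, adjusted p under 0.05 over all genes). Each value is a difference of log2 changes. For Dll1 it was -0.89 for the diaphragm minus the gastrocnemius, -0.97 for the diaphragm minus the soleus and -0.83 for the diaphragm minus the tibialis anterior. Jag1 gave -0.50 for the diaphragm minus the tibialis anterior, -0.33 for the gastrocnemius minus the tibialis anterior and -0.46 for the soleus minus the tibialis anterior. Notch1 had 0.36 for the diaphragm minus the gastrocnemius, -0.30 for the gastrocnemius minus the soleus and -0.24 for the gastrocnemius minus the tibialis anterior, and Notch3 0.30 for the diaphragm minus the gastrocnemius, -0.45 for the gastrocnemius minus the soleus and -0.42 for the gastrocnemius minus the tibialis anterior. Single pairs stood out for Hey1 (0.75 for the diaphragm minus the gastrocnemius), Heyl (0.34 for the diaphragm minus the gastrocnemius), Hes1 (-0.45 for the diaphragm minus the gastrocnemius) and Pax7 (-0.49 for the soleus minus the tibialis anterior). Only the 3 Dll1 values and that of Hey1 were over 1.5-fold, and the Hey1 value missed the test with total-count scaling (0.47, adjusted p = 0.096) and with Bonferroni adjustment. Pairs with the gastrocnemius also differ in sample number series. In the 24 combinations of member and age with 9 or 10 libraries, all in the gastrocnemius, no member had a library standing apart by Dixon's test; larger groups were not tested.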

How the results depend on the processing

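Of 352 values of member changes at 27 months under processing alternatives, 331 kept their direction and their side of the call. These include Bonferroni adjustment and the 2-fold limit, which reuse the values of the main fit. Under these 2 no direction could turn and no call could be gained, so the count overstates how steady the values were. Leaving out 1 library in turn ended no member call, and the direction turned in 26 of 744 values. The lowest and highest values were, in the soleus, Hes1 -0.045 to 0.057, Hey1 -0.35 to 0.049, Notch3 -0.029 to 0.056, Pax7 -0.12 to 0.0033 and Dlk1 -0.062 to 0.13, the last no member, and in the tibialis anterior Hes1 -0.044 to 0.078. With a 2-fold limit no member was called in the gastrocnemius, soleus or tibialis anterior at 27 months, over all ages (0), as age-related (0) or between muscles in the change (0), 2 differences at 6 months were called, and the Notch and satellite lists had 3 and 7 calls in place of 18 and 24. Bonferroni adjustment left 1 gastrocnemius call. Total-count scaling gave 1 call in the gastrocnemius, 3 in the tibialis anterior, 9 differences of change and 25 at 6 months. It moved the median change of all genes to 0.043, 0.32, 0.16 and 0.34 in the order diaphragm, gastrocnemius, soleus, tibialis anterior, and the share of calls that were higher from 66.0% to 90.0%, 61.4% to 77.7% and 62.4% to 89.1% in the last 3. Under it, soleus Pax7 (0.076), Jag1 (0.064), Notch1 (0.0092) and Hes1 (0.13), tibialis anterior Notch1 (0.11), Notch3 (0.29), Hey1 (0.072) and Heyl (0.13), and Notch3 at 6 months (gastrocnemius minus soleus -0.21, soleus minus tibialis anterior 0.24) turned sign, so these directions are relative to the scaling. Hes1 near 0 also turned in the soleus (edgeR 0.0049, quality weights 0.0058) and tibialis anterior (no filter -0.0011, edgeR -0.015, DESeq2 -0.012). With the replicate number as a block, 8 member calls in place of 7 were made over all ages and muscles. Same-numbered libraries at 27 and 6 months correlated from -0.24 to 0.38 in their deviations, and 4 of 46 correlated best with their own number, so within a muscle the samples share only a number. Same-numbered libraries of 2 muscles at 1 age correlated by 0.0611 to 0.179 on average over the 6 pairs, against -0.0159 to -0.00483 for other numbers, with 36.1% to 72.3% over 0.1. Tests between muscles took libraries as separate; with age and number as a block they gave 4 and 13 calls, as without it. With the block the Msc call in the soleus was lost (1.37, adjusted p = 0.074). Depth limited Hey1 most, with 2 to 157 counts a library.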
